A study of Mus musculus with 2 samples.

Results

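Among nuclei prepared from the heart of control mice, 91 barcodes carried the RNA of airway epithelium. They were chosen by marker RNA: at least 200 genes detected, at most 30% mitochondrial UMIs (unique molecular identifiers, the counted RNA molecules), UMIs of at least 3 of 10 airway genes, and at least 1 UMI of Muc5b, Foxj1, Dnah5, Dnah12, Epcam or Cdh1. The other 4 genes are Scgb3a2, Cyp2f2, Scgb3a1 and Rsph1. The 91 nuclei were 0.808% of the 11257 control barcodes, with an exact (Clopper-Pearson) 95% interval of 0.651% to 0.992%. The same rule found 0 of 15077 barcodes in the other library of the study, CF-KI, which allows a share of up to 0.0199% by the limit of 3 barcodes and 0.0245% by the exact interval.

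The study profiled single nuclei of cardiac tissue with the 10x Genomics Chromium 3′ v3 kit, 1 library per genotype, and asked what an active NLRP3 inflammasome in fibroblasts does to the heart. Both genotypes carried Tcf21-MerCreMer, a tamoxifen-inducible Cre recombinase driven from a gene of cardiac fibroblasts, and both received tamoxifen injections. CF-KI mice were Nlrp3-A350V/A350V, an activating mutation that stays silenced in cells without Cre, and control mice were Nlrp3-WT/WT. All were male C57Bl6/J animals 3.5 months of age. The number of animals behind a library is not given in the labels, nor is any airway or lung tissue named there. With 1 library per genotype no test was possible, and every interval below covers counting error only, since nuclei of 1 library are not replicates.

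The conducting airways are lined by secretory cells and multiciliated cells. Secretory cells, including club cells, release secretoglobins, antimicrobial proteins and mucins and carry enzymes that break down inhaled chemicals. Multiciliated cells bear motile cilia, whose microtubule core (the axoneme) is moved by dynein motors and controlled by radial spokes and a central pair, and which beat the mucus toward the throat. FOXJ1 and the RFX factors are the known activators of the genes for motile cilia.

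The control library held 18040776 UMIs and the CF-KI library 21603653. Of the barcodes, 10896 in the control and 12598 in CF-KI met the limits on genes and mitochondrial UMIs, with median mitochondrial shares of 3.28% and 12.1%. The libraries shared 46 barcode sequences, of which 1 belonged to an airway nucleus. Scrublet, a doublet caller, marked 3.09% of the kept control barcodes and 2.93% of the kept CF-KI barcodes. It marked none of the 91 airway nuclei, and called doublets were kept, as in the rule. Levels are given as CPM, the UMIs of a gene or list scaled to a common total of non-mitochondrial UMIs in the group of nuclei, as counts per 1e6 UMIs.

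The nuclei were divided by the rule's own genes. More distinct genes of Scgb3a2, Cyp2f2, Muc5b and Scgb3a1 than of Foxj1, Dnah5, Dnah12 and Rsph1 made a nucleus secretory, fewer made it ciliated, and equal numbers left it undivided. This gave 47 secretory nuclei (51.6%, 40.9% to 62.3%), 31 ciliated nuclei (34.1%, 24.5% to 44.7%) and 13 undivided nuclei (14.3%, 7.83% to 23.2%). Ciliated nuclei were the deeper ones, with a median of 3039 UMIs and 1507 genes against 1665 UMIs and 866 genes in secretory nuclei. Thinned to 500 UMIs each, the nuclei had medians of 300 and 312 genes. The median mitochondrial share was 16.2% in ciliated, 18.6% in undivided and 3.22% in secretory nuclei, beside 3.26% in the other 10805 kept control barcodes.

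The 10 genes of the rule describe the choice and are no finding. Scgb3a2, a secretoglobin of club cells, had 675 UMIs in secretory, 10 in ciliated and 234 in undivided nuclei. Muc5b, the secreted mucin of small airways, had 113, 0 and 17. Dnah5, an outer arm dynein heavy chain, had 20, 108 and 38, and Foxj1, the master regulator of motile cilia, 12, 64 and 19. Epcam, a general epithelial adhesion protein, was spread over both kinds, with 21 UMIs in secretory and 29 in ciliated nuclei. Cyp2f2, a cytochrome P450 used as a club cell marker, was high in both kinds as well, with 292 UMIs in secretory and 167 in ciliated nuclei, and at least 1 UMI in 43 of 47 and 30 of 31 nuclei.

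**Figure D1:**
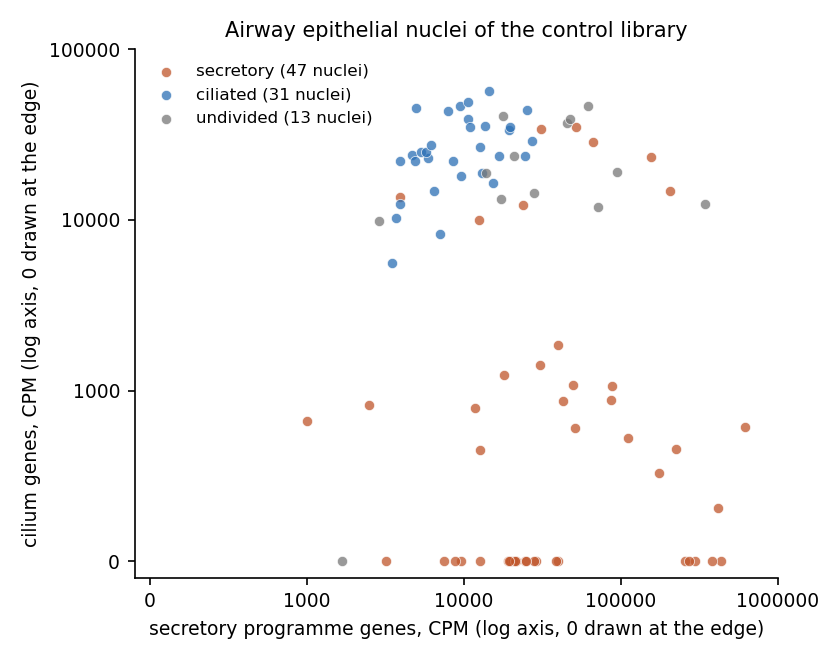
Each point is 1 of the 91 airway epithelial nuclei, with the summed CPM of the secretory programme genes on the x axis and of the cilium genes on the y axis (both logarithmic, with 0 drawn at the edge, and without the genes of the rule). The 31 ciliated nuclei lie at 5572 CPM of cilium genes or more, while 39 of the 47 secretory nuclei lie at or below 1854 CPM.

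A few secreted proteins made up most of the secretory programme RNA. Scgb1a1, the main club cell secretoglobin (ENSMUSG00000024653, chr19:9083636-9087958, minus strand, GRCm38), reached 60385 CPM (58865 to 61934) from 5989 UMIs. Bpifa1, an antimicrobial surfactant protein of the airway (ENSMUSG00000027483, chr2:154142880-154149219, plus strand), reached 36580 CPM (35399 to 37790) from 3628 UMIs. In ciliated nuclei the same genes had 53 and 30 UMIs, or 504 and 285 CPM. The other control barcodes had 302 and 150 CPM. Ciliated nuclei were therefore far closer to the rest of the library than to secretory nuclei, where the 2 genes were 120-fold and 128-fold higher than in ciliated nuclei.

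The 43 genes of the secretory programme summed to 122515 CPM in secretory, 82668 in undivided and 9652 in ciliated nuclei, against 1634 in the other control barcodes. The sums are carried by its most abundant genes: over the 32 genes with at least 10 UMIs, the median log2 ratio of secretory to ciliated nuclei was 1.17, and 0.75 without the 15 nuclei with 20 or more cardiomyocyte marker UMIs. Of the 38 genes with at least 20 UMIs in secretory nuclei and other control barcodes together, 33 were at least 4-fold higher in secretory nuclei, where 3.93% of all genes with that many UMIs were. None was lower by that much, where 0.929% of all genes were. Against secretory nuclei, 13 of 29 genes with at least 20 UMIs were at least 4-fold lower in ciliated nuclei and none was higher by that much, where 2.39% of all genes were lower and 7.51% higher. A gene can pass the UMI minimum through the group where it is high, so such counts describe the lists and support no difference.

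Several genes of host defence were also higher in secretory than in ciliated nuclei, to unequal degrees. Ltf, the iron-binding lactotransferrin (ENSMUSG00000032496, chr9:111019271-111042767), had 272 UMIs in 16 of 47 secretory nuclei and 2 UMIs in 1 ciliated nucleus, a log2 ratio of ciliated over secretory of -7.17 (-10.22 to -5.31). Bpifb1, a sister protein of Bpifa1, had 222 UMIs in 18 secretory nuclei and 0 in ciliated nuclei, so that it was at least 78.5-fold higher in secretory nuclei with the floor of 3 UMIs per group. Sftpa1, the surfactant protein A collectin, had 84 UMIs in 12 secretory nuclei and 0 in ciliated nuclei, or at least 29.7-fold more. All 3 were thus found in a minority of secretory nuclei. Reg3g, an antibacterial lectin, was spread more widely, with 364 UMIs in 34 secretory nuclei and 30 UMIs in 11 ciliated nuclei. Pigr, the receptor that carries immunoglobulin A across epithelium, had 28 UMIs in secretory and 2 in ciliated nuclei.

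The values per nucleus were uneven. In the 47 secretory nuclei Scgb1a1 ranged from 0 to 868 UMIs with a median of 12, and the 5 nuclei with the most held 59.8% of its UMIs. Bpifa1 ranged from 0 to 799 UMIs with a median of 9, and its top 5 nuclei held 66.7%. For Ltf the median was 0, the highest value 97, and the share of the top 5 nuclei 80.9%. The sums above therefore describe a few strongly loaded nuclei more than the typical one. Cbr2, a carbonyl reductase abundant in club cells, was the most even of these genes, with a median of 5, a highest value of 23, a top 5 share of 27.8% and at least 1 UMI in 40 nuclei.

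Mitochondrial share moved with these levels. The 29 secretory nuclei with at most 5% mitochondrial UMIs had 27205 CPM of Scgb1a1, 6069 of Bpifa1 and 171 of Ltf. In the 18 with more than 5% the values were 97799, 70984 and 5642 CPM. In the first group 1 nucleus, at 4.94% mitochondrial UMIs, held 868 of the 1430 Scgb1a1 UMIs. Without it the level was 12097 CPM, and the ratio between the groups rose from 3.59-fold (3.39 to 3.82) to 8.08-fold (7.40 to 8.84). The median nucleus had 3750 CPM of Scgb1a1 in the first group and 57250 in the second. Of the rule's own genes, whose levels the choice of nuclei can set, Scgb3a2 was at 2892 and 11219 CPM and Muc5b at 1332 and 922. Cbr2 stood at 2968 and 2832 CPM, and the summed epithelial junction genes described below differed by a log2 ratio of 0.17 (-0.22 to 0.56). The summed secretory programme was 4.19-fold higher (4.01 to 4.37) with the higher mitochondrial share, and the summed cilium genes 2.30-fold (1.91 to 2.79). Gene by gene the lists were closer. The median log2 ratio was 0.96 over 9 junction genes and 0.91 over 30 secretory programme genes with at least 10 UMIs. The median depth was 2706 UMIs in the nuclei with the higher mitochondrial share and 1540 in those with the lower. The part of depth and of mitochondrial RNA in these differences was not tested.

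**Figure D2:**
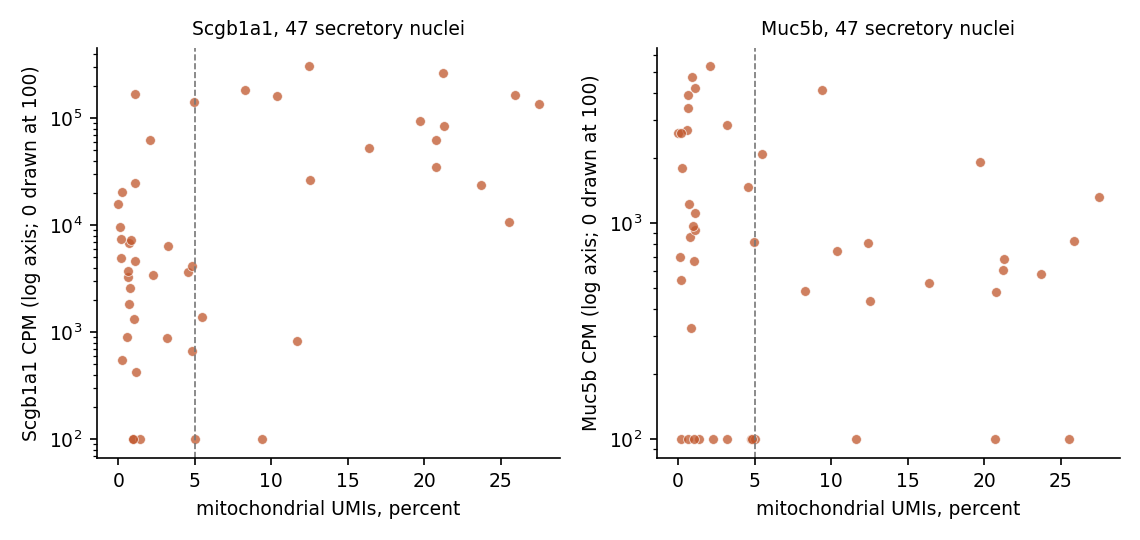
Each point is 1 of the 47 secretory nuclei. The x axes give the mitochondrial share of UMIs in percent and the y axes the CPM of Scgb1a1 (left) and Muc5b (right), logarithmic with 0 drawn at 100. The dashed line marks 5%. Scgb1a1 was at 27205 CPM over the 29 nuclei up to 5% and at 97799 over the 18 above it, and Muc5b, a gene of the rule shown as a description, at 1332 and 922.

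Of goblet and gland genes, Agr2, a chaperone needed for mucin folding, had 19 UMIs in secretory and 0 in ciliated nuclei, and Tff2, a trefoil peptide secreted with mucus, 14 and 0. Muc5ac, the mucin of goblet cells, had 1 UMI in secretory and 1 in undivided nuclei, and Spdef, the transcription factor of goblet cells, 0 in all 91. Slc12a2, the basolateral chloride importer of secreting epithelia, had 41 UMIs in 23 secretory nuclei and 3 UMIs in 3 ciliated nuclei. Aqp5, a water channel, had 14 and 2. No UMI of Cftr, the apical chloride channel, was found in the airway nuclei, beside 28 UMIs in the other control barcodes.

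Ciliated nuclei held UMIs of 105 of the 110 cilium genes in 4 lists. These genes, which leave out those of the rule, summed to 23936 CPM in ciliated, 19642 in undivided and 5122 in secretory nuclei, against 346 in the other control barcodes. The ratio of ciliated to secretory nuclei was 4.67-fold (4.25 to 5.15). The median log2 ratio over the 75 genes with at least 10 UMIs was 2.18, beside 0.08 over all 3955 such genes. With nuclei divided by marker UMIs in place of distinct markers it was 1.31. Of 49 genes with at least 20 UMIs, 36 were at least 4-fold higher in ciliated nuclei and none was lower by that much, where 7.51% of all genes were higher and 2.39% lower. Of those 49, 46 had enough UMIs only through the ciliated nuclei. Against the other control barcodes, 79 of 86 cilium genes were at least 4-fold higher and none lower by that much, where 5.32% of all genes were higher and 0.617% lower.

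The secretory side of that ratio came from few nuclei. No cilium gene UMI was found in 22 of the 47 secretory nuclei. In 8 of them the level was at or above that of the lowest ciliated nucleus, and these 8 held 95.3% of the cilium gene UMIs of the class. The other 39 stayed below 1854 CPM. No secretory nucleus lay between 1854 and 5572 CPM. Among the 35 nuclei without any of the 4 ciliated genes of the rule, none reached the lowest ciliated nucleus. Set against these 35, the 20 ciliated nuclei with no secretory gene of the rule but Cyp2f2 had 67.6-fold more cilium gene RNA (44.1 to 109.6), so that the ratio depends on how nuclei with both kinds of marker are placed. Of the 13 undivided nuclei, 12 were at or above the lowest ciliated nucleus. No nucleus with both kinds of marker was called a doublet. The call cannot decide whether such a barcode held RNA of more than 1 nucleus. With 91 airway nuclei among 10896 kept barcodes, few of the caller's simulated doublets would pair 2 airway nuclei. The question was not tested otherwise.

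The parts of the axoneme behaved alike. Dynein chains summed to 4574 CPM in ciliated and 1008 in secretory nuclei, dynein assembly and docking genes to 3728 and 797, and radial spoke and central pair genes to 5021 and 1119. Dnah3, an inner arm dynein heavy chain (ENSMUSG00000052273, chr7:119922671-120095280), had 113 UMIs in 28 of 31 ciliated nuclei, from 0 to 7 with a median of 3, and 30 UMIs in 7 secretory nuclei. Ccdc39, part of the ruler that sets the repeat length of the axoneme (ENSMUSG00000027676, chr3:33812362-33844310), had 144 UMIs in 29 ciliated nuclei and 41 in 9 secretory nuclei. Cfap44, a protein that tethers inner arm dyneins (ENSMUSG00000071550, chr16:44394796-44482428), had 103 UMIs in 28 ciliated nuclei and 15 in 7 secretory nuclei, a log2 ratio of 2.70 (1.91 to 3.58). Most ciliated nuclei thus held each of the 3 RNAs. Spag17 and Hydin, proteins of the central pair, had 67 and 49 UMIs in ciliated nuclei and 10 each in secretory nuclei. Rsph4a, a radial spoke head protein, had 28 and 1. Reads of Dnah7a, Dnah7b and Dnah7c may be split between these close copies, and their counts of 15, 23 and 9 in ciliated nuclei are uncertain.

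**Figure D3:**
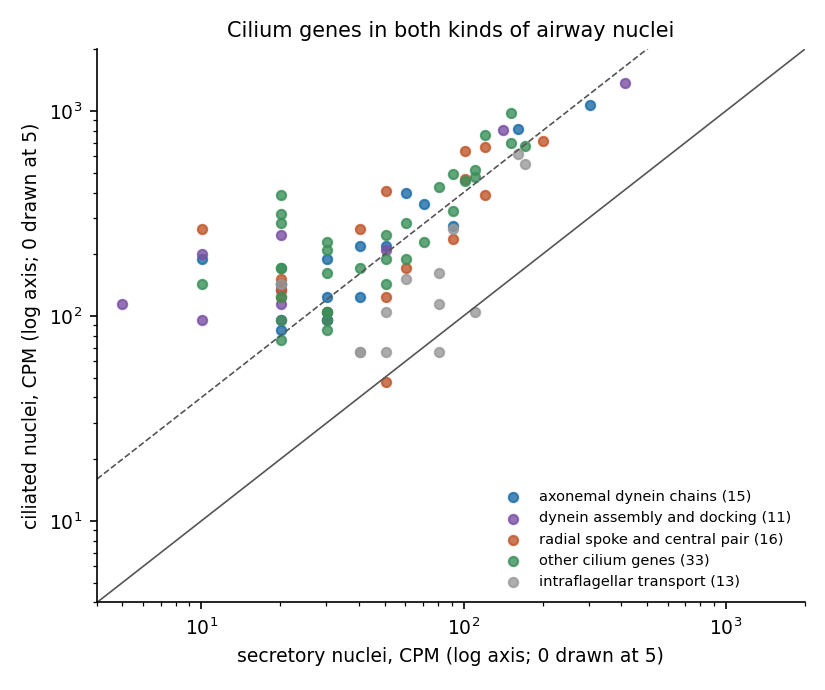
Each point is 1 gene of the cilium lists or of intraflagellar transport with at least 10 UMIs in secretory and ciliated nuclei together, in CPM of secretory (x) and ciliated (y) nuclei, both logarithmic with 0 drawn at 5. The solid line marks equal levels and the dashed line 4-fold. Intraflagellar transport genes (grey, 13 genes) lie nearer to the solid line than the axonemal genes.

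Intraflagellar transport, the cargo system that builds every cilium, differed less: 2872 CPM in ciliated, 1220 in secretory and 548 in other control barcodes, a ratio of ciliated to secretory of 2.35-fold (1.90 to 2.93). Traf3ip1, a subunit of the anterograde complex, was at 618 and 161 CPM, and Dync2h1, the motor of retrograde transport, at 552 and 171. Ift20, in contrast, had 11 UMIs in each kind. Regulators of cilium formation were sparse. Mcidas, Cdc20b and Foxn4, genes of cells that are still multiplying their centrioles, had 0 UMIs in all 91 nuclei, and Deup1, a scaffold of that step, had 6 in ciliated and 0 in secretory nuclei. Rfx3, an activator of cilium genes, had 12 and 3 UMIs, and Ulk4, a kinase homologue needed for motile cilia, 25 and 3. Myb, an early regulator of multiciliated cells, had 10 and 9.

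The sequences before the start sites of cilium genes were examined for the letters of known activators, since these genes were high together. The promoter table is RefSeq's, on GRCm38.p6. Windows of 1 chromosome were left out before any count, for the lists and for all genes alike. Of the 113 listed symbols, 91 had a window among the rest. GTTGCC, the core of 1 arm of the X-box that RFX factors bind, stood on either strand within 250 bases before the start in 39.6% of the 91 cilium genes (29.5% to 50.4%), in 11.8% of all 27025 genes and in 6.06% of 33 secretory programme genes (0.743% to 20.2%). The full X-box palindrome, which can contain those letters, stood in 10 of the 91 cilium genes (5.40% to 19.3%) and in 1.81% of all genes. The forkhead letters GTAAACA stood in 6.59% (2.46% to 13.8%) and 3.54%. CAAGTG, the core read by NKX2-1, stood in 24.2% of the secretory programme genes (11.1% to 42.3%), 9.89% of the cilium genes (4.62% to 17.9%) and 13.2% of all genes. A match is a description of the letters, not a site.

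The windows of 3 cilium genes are printed. They were taken from the 40 genes at the ends of the rankings by ratio, not from the whole cilium lists. Among the cilium genes of those 40 that the promoter table holds, they had the most UMIs in ciliated nuclei. Capitals mark a motif, read 5′ to 3′ on the strand of the gene, and bases inside the annotated GENCODE gene were left out. Cfap44 (chr16:44394549-44394795, plus strand) has GGCAAC, which reads GTTGCC on the opposite strand, 129 and 19 bases before the RefSeq start. BC051019 (chr7:109723851-109724021, minus strand) has it 135 and 123 bases before. Ak7 (chr12:105705732-105705975, plus strand) has TGTTTAC, the forkhead letters on the opposite strand, 131 bases before.
Cfap44: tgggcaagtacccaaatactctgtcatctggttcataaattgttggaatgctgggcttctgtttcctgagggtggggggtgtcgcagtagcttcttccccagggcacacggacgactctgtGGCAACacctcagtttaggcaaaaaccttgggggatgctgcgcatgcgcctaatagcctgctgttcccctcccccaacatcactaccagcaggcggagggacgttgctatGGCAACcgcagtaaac
BC051019: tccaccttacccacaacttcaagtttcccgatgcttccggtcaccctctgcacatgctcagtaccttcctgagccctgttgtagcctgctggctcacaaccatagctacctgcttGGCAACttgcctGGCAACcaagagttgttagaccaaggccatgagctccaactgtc
Ak7: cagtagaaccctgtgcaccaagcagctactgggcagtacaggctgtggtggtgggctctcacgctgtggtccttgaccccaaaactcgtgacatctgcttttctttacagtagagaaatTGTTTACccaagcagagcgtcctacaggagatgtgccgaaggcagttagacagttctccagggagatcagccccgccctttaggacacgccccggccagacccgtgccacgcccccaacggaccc
The window of Bpifa1 (chr2:154142630-154142879, plus strand), chosen for comparison after its values were seen, holds none of the 4 motifs.
Bpifa1: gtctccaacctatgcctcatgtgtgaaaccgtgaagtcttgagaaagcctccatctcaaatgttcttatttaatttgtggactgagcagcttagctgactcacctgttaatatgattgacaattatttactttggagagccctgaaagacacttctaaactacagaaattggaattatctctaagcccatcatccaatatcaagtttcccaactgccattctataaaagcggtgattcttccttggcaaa

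BC051019 and Ak7, an adenylate kinase of the axoneme, were also among the most restricted to ciliated nuclei, with 41 and 33 UMIs there and 2 each in secretory nuclei. The log2 ratios were 4.27 (2.33 to 7.37) and 3.96 (1.99 to 7.06). Of genes outside the lists, Gm867 had 40 UMIs in 21 ciliated nuclei and 1 in secretory nuclei, and Ccdc187, a centrosomal protein, 39 in 21 nuclei and 2. Fhad1 had 68 and 7. Plet1, a surface protein of epithelia, had 28 and 1, with 152 in the other control barcodes. Dthd1 had 25 UMIs in ciliated, 4 in secretory and 7 in undivided nuclei against 1 in the 10805 other control barcodes. Ttc21a, a transport-complex paralogue, had 75, 17 and 16 against 10. Among the 15 genes highest in ciliated nuclei over other control barcodes, 7 belonged to the cilium lists.

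The genes highest in secretory nuclei over other control barcodes included several that the lists did not hold. Slc10a5, a member of the bile acid transporter family, had 16 UMIs in 11 secretory nuclei and 3 in ciliated nuclei against 4 in other control barcodes. Fut9, a fucosyltransferase, had 14, 2 and 8, and 5330417C22Rik 34, 1 and 20. C530043A13Rik, an intergenic noncoding RNA, had 24 and 31 UMIs against 5, but its 24 secretory UMIs lay in 3 nuclei and its 31 ciliated UMIs in 13. None of those 24 lay in the 35 secretory nuclei without a ciliated gene of the rule. Arhgef38 had 13 UMIs in secretory and 12 in ciliated nuclei against 9, a log2 ratio of ciliated over secretory of -0.20 (-1.46 to 1.05).

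Some genes of the secretory programme were found in both kinds of nuclei. Sec14l3, a lipid-binding protein of airway epithelium, was at 988 CPM in secretory and 1027 in ciliated nuclei, with UMIs in 34 of 47 and 30 of 31. Cyp2a5, a cytochrome P450 whose reads may be shared with a close paralogue, was at 907 and 647 CPM. Aldh1a1, a retinal dehydrogenase, was at 817 and 980 CPM. The log2 ratio of ciliated over secretory was 0.06 (-0.35 to 0.47) for Sec14l3. It was -0.49 (-0.96 to -0.02) for Cyp2a5 and 0.26 (-0.17 to 0.70) for Aldh1a1. Cbr2 and Wfdc2, a secreted protease inhibitor, were lower in ciliated nuclei, by log2 ratios of -1.11 (-1.42 to -0.82) and -1.17 (-1.46 to -0.89). They remained well above the other control barcodes, at 1341 and 1426 CPM against 53.6 and 32.1. Bpifa1 had 0.566 UMIs per UMI of Scgb1a1 in ciliated nuclei (0.349 to 0.902). The value was 0.606 in secretory nuclei (0.581 to 0.631) and 0.499 in other control barcodes (0.475 to 0.524). The interval of ciliated nuclei holds both, so it cannot tell them apart.

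**Figure D4:**
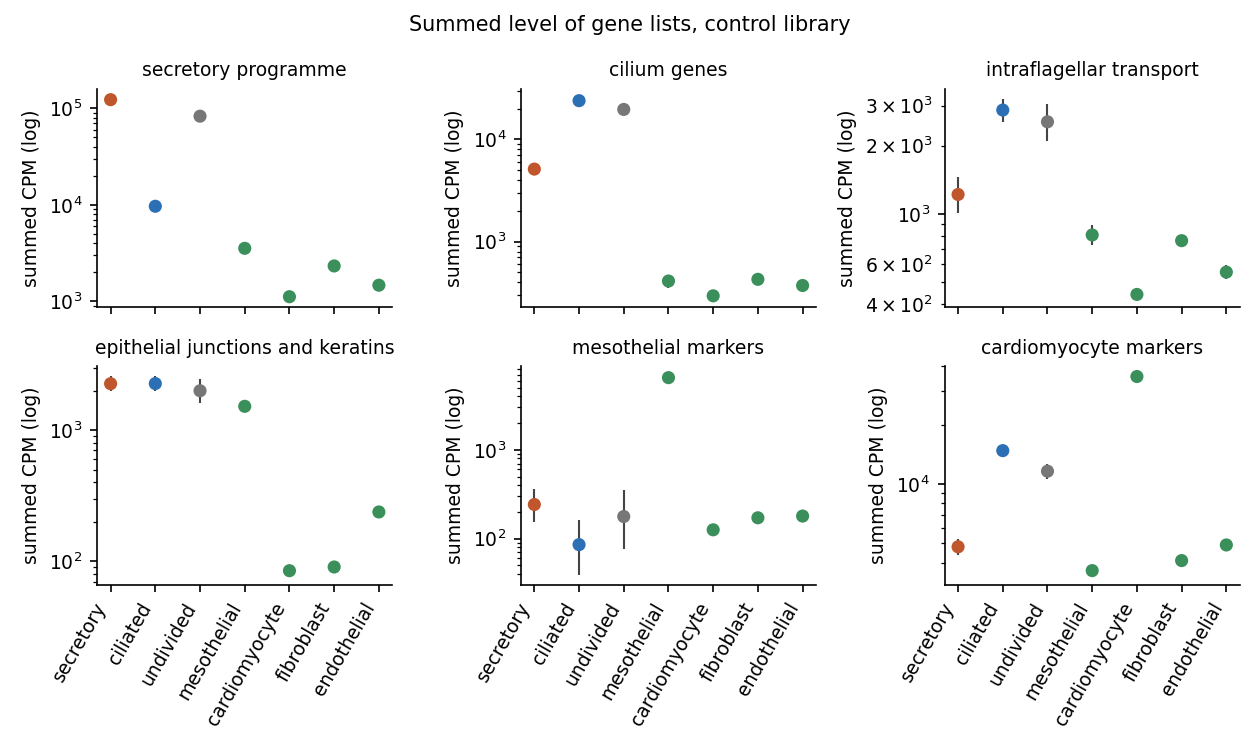
Summed CPM of 6 gene lists (log axes; bars are exact 95% Poisson intervals, often smaller than the point) in secretory, ciliated and undivided airway nuclei and in 4 classes of control barcodes named by heart markers. As class sums, secretory programme and cilium genes are higher in all 3 airway classes than in the heart classes shown, though 39 of 47 secretory nuclei have at most 1854 CPM of cilium genes, while junction and keratin genes stand at 2259 and 2263 CPM in secretory and ciliated nuclei and 1518 CPM in mesothelial barcodes.

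As class sums, epithelial junction and keratin genes stood at like levels in both kinds. These 37 genes summed to 2259 CPM in secretory and 2263 in ciliated nuclei, a ratio of 1.00 (0.831 to 1.21), against 147 CPM in the other control barcodes. Within ciliated nuclei the sum was 4.48-fold higher (2.74 to 7.84) in the 23 with more than 5% mitochondrial UMIs than in the other 8. The part of mitochondrial share in the ratio of 1.00 was not tested. The median log2 ratio of all airway nuclei over other control barcodes was 4.92 for the 27 genes with at least 10 UMIs, beside 0.14 over all 16332 such genes. The mesothelium, the epithelium on the heart's surface, had 1518 CPM in 290 barcodes with mesothelial markers, so that the sum in airway nuclei was 1.46-fold higher (1.30 to 1.63). The median log2 ratio over the 19 genes with at least 10 UMIs was 1.87. The keratins Krt8 and Krt19 had 53 and 191 UMIs there. Cldn7, a tight junction claudin, had 11 UMIs in secretory and 17 in ciliated nuclei and 0 in mesothelial barcodes, and Esrp1, a splicing factor of epithelial cells, 7, 8 and 0. These 2 genes do not stand for the list. Of its genes with at least 20 UMIs, 3 of 9 were higher in secretory nuclei than in mesothelial barcodes. The count was 4 of 9 for ciliated nuclei and 9 of 13 for all airway nuclei. The matching shares over all genes were not computed. Mesothelial markers in turn stood at 242 CPM in secretory and 85.6 in ciliated nuclei, against 6476 in mesothelial barcodes. The airway nuclei thus had the junction genes without the mesothelial markers' level.

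Transcription factors of lung epithelium were detected in both kinds, at low counts. The 16 genes of the list summed lower in ciliated than in secretory nuclei, at 0.638-fold (0.467 to 0.866). The median log2 ratio of ciliated over secretory nuclei was -0.27 over the 8 genes with at least 10 UMIs. Nkx2-1, the defining factor of lung and thyroid epithelium, had 9 UMIs in 8 secretory nuclei, 8 in 7 ciliated nuclei and 2 in undivided nuclei. The other 10805 control barcodes had 8 UMIs in all, and the whole CF-KI library 0. Sox2, the factor of the conducting airway, had 11, 13 and 3 UMIs against 10 and 3. Foxa1, a pioneer factor of endoderm, had 4, 10 and 0 against 9 and 0. Pax8, a thyroid factor, and Tg, thyroglobulin, had 0 UMIs in the airway nuclei.

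Defining genes of other lung epithelial types were at or near 0, although some of their lists were above the other control barcodes. Sftpc, the surfactant protein of alveolar type 2 cells, had 1 UMI in each of the 3 classes, and Sftpb and Lamp3 had 0. The alveolar type 2 list had 14 UMIs in secretory nuclei, or 141 CPM against 47.4 in other control barcodes, 2.98-fold more (1.62 to 5.02). Ager and Cldn18, genes of alveolar type 1 cells, had 0. The alveolar type 1 list as a whole, at 686 CPM in secretory and 932 in ciliated nuclei, stood below the 1081 CPM of other control barcodes, most of it from Lmo7 and Vegfa, which heart cells express. Of basal cell genes, Krt5 had 0 UMIs and Trp63 had 6 in secretory nuclei and 0 in ciliated nuclei. The basal list had 13 UMIs in secretory nuclei, or 131 CPM against 14.1, 9.28-fold more (4.87 to 16.2). Foxi1, of ionocytes, and Chga, of neuroendocrine cells, had 0. The 9 cartilage genes summed to 10.1 CPM in secretory and 0 in ciliated nuclei.

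RNA of heart cells was present beside the airway RNA, mostly in a few nuclei. The 10 cardiomyocyte markers summed to 14873 CPM in ciliated and 4809 in secretory nuclei, against 3637 in mesothelial barcodes and 21376 over the other control barcodes. Ttn, the giant sarcomere protein, had 836 UMIs in ciliated and 176 in secretory nuclei. At least 20 cardiomyocyte marker UMIs were found in 9 ciliated, 3 secretory and 3 undivided nuclei. Without these 15 nuclei the markers made up 0.263% of UMIs in place of 1.03%. They stood at 2384 CPM in ciliated and 3031 CPM in secretory nuclei, so that the direction turned (log2 ratio -0.35, -0.65 to -0.05). The median log2 ratio of cilium genes was then 2.58. The nuclei were left out by the counts compared, at 1 limit for classes of unequal depth, so the turn describes that choice. Over all nuclei the median nucleus had 3737 CPM of cardiomyocyte markers in ciliated and 2843 in secretory nuclei. The part of heart RNA in the levels of ciliated nuclei was not tested beyond this. Fibroblast markers stood at 1270 CPM in secretory and 1645 in ciliated nuclei, below the 6484 of other control barcodes, and endothelial markers at 867 and 447 against 1327.

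Airway RNA was also found across the rest of the control library. Of 4937 barcodes with cardiomyocyte markers, 32.8% had a Scgb1a1 UMI (31.5% to 34.1%) at a median depth of 1324 UMIs. The share was 30.3% of fibroblast, 31.6% of endothelial and 31.7% of mesothelial barcodes, and 64.5% of ciliated nuclei (45.4% to 80.8%), whose median depth was 3039 UMIs. In secretory nuclei it was 89.4% (76.9% to 96.5%) at 1665 UMIs. In CF-KI it was 4 of 9929 barcodes with cardiomyocyte markers (0.0403%). Scgb1a1 was thus found at like shares in these 4 heart classes of the control library. The level was higher in barcodes with macrophage markers, with 277 UMIs among 509208 non-mitochondrial UMIs. Barcodes with cardiomyocyte markers had 2312 among 8866002. Single cilium genes were found in fewer of the barcodes with cardiomyocyte markers: Ccdc39 in 1.40%, Dnah3 in 0.547% and Cfap44 in 0.203%, beside 93.5%, 90.3% and 90.3% of ciliated nuclei. In CF-KI, where the rule found no airway nucleus, the shares of such barcodes were 1.15%, 0.191% and 0%. At least 1 UMI of any of the 110 cilium genes was found in 1828 of the 4937 control barcodes. How much of this cilium gene RNA came from airway cells was not tested. Relative to Scgb1a1 the spread differed between genes. Dnah5, a gene of the rule, had 0.0203 UMIs per Scgb1a1 UMI over all 91 airway nuclei (0.0173 to 0.0237) and 0.0196 in the other control barcodes (0.0159 to 0.0240). Cyp2f2 and Scgb3a2, also genes of the rule, were lower in airway nuclei, at 0.0695 and 0.113 against 0.117 and 0.148. Scgb3a1, another gene of the rule, was higher there, at 0.126 against 0.100, and Bpifa1 was at 0.540 against 0.499.

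**Figure D5:**
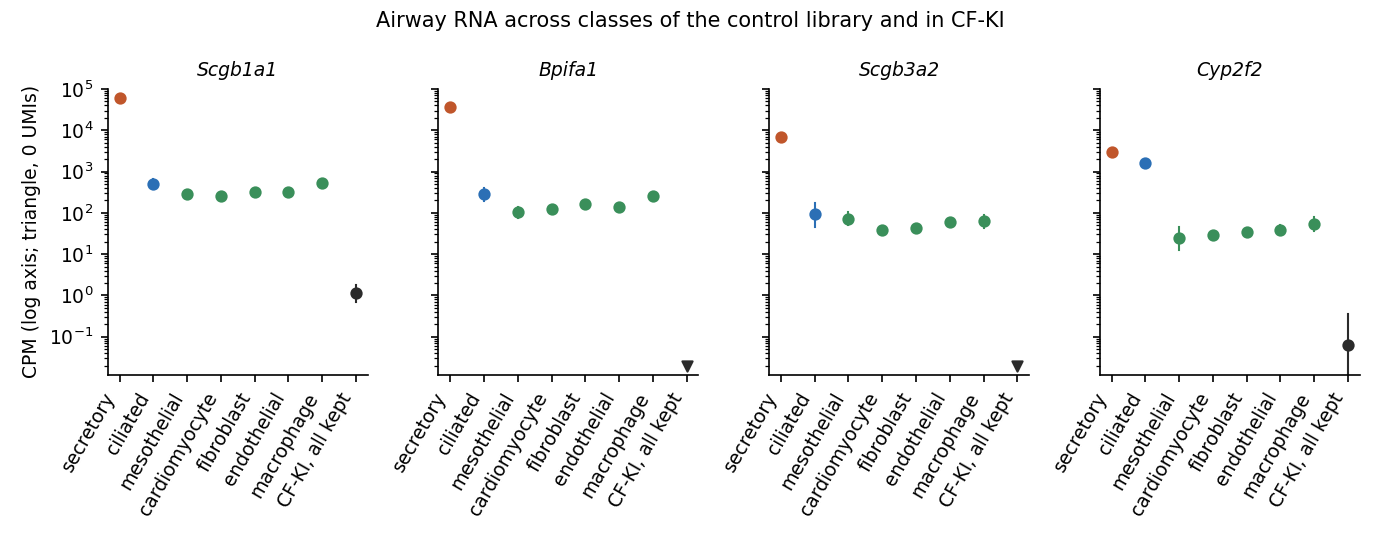
CPM of 4 airway genes (log axis, exact 95% Poisson intervals, triangles for 0 UMIs) in secretory and ciliated nuclei, in 5 classes of control barcodes named by heart markers and in all kept CF-KI barcodes. Scgb3a2 and Cyp2f2 are genes of the rule. Scgb1a1, Bpifa1 and Scgb3a2 in ciliated nuclei lie closer to the heart classes than to secretory nuclei, Cyp2f2 in ciliated nuclei lies near secretory nuclei, and every gene is lowest in CF-KI.

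Of the 14789 Scgb1a1 UMIs of the control library, 55.2% (54.4% to 56.0%) lay in the 91 airway nuclei and 4891 UMIs in the other kept barcodes. The 38 airway nuclei with at most 5% mitochondrial UMIs held 9.72%. The airway nuclei held 69.9% of the Ltf UMIs, 68.0% of those of Cfap44 and 62.2% of those of Dnah3. The whole CF-KI library had 32 UMIs of Scgb3a1, a gene of the rule, 19 of Scgb1a1 and 0 of Bpifa1, Reg3g and Scgb3a2. No kept CF-KI barcode had more than 1 of the 10 rule genes, and 49 had 1. Over whole libraries, fewer airway nuclei and less RNA per nucleus cannot be told apart, nor can the genotype and the library.

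At the threshold of the rule, the 17 nuclei with exactly 3 markers had 9658 CPM of the secretory programme and 4829 of cilium genes, and the 74 with 4 or more had 76947 and 17401. The 55 barcodes with only 2 markers, at least 1 of them among the required 6, had 3320 and 1423 CPM. Barcodes with 1 marker had 1652 and 336. The 5 barcodes with 3 or more markers but none of the required 6 had 32215 CPM of the secretory programme and 94.5 of cilium genes.

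Clustering of the control barcodes without the rule's genes and mitochondrial genes returned 16 clusters, of which 1 held 82 of the 91 nuclei among its 105 barcodes: 41 secretory, 30 ciliated and 11 undivided. It was led by C530043A13Rik, Ttc21a, Lrrc6, Dthd1, Ttll6 and Nkx2-1. The 9 nuclei outside it had 11044 CPM of the secretory programme against 71389 inside and 3439 CPM of endothelial markers against 367. The other 23 barcodes of the cluster had 18014 CPM of the secretory programme, and 14 of them had 2 rule genes.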

How the data were processed

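Nuclear RNA was measured in 1 control and 1 CF-KI library. The authors deposited unnormalized UMI counts, whole numbers for each feature and barcode, made with Cell Ranger 6.1.1 per the file headers, against mm10 per the submitters' processing notes. The settings of cell calling are not given in the sources used here. Features that share a symbol were summed, which left 32245, and 32196 of the features (99.8%) matched GENCODE vM21 on GRCm38 by identifier. That annotation gives all gene positions.

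The airway nuclei, the gene lists, the comparisons and the alternatives were chosen with earlier results of these data known. There were 423 list entries, of which 3 symbols (Dnai1, Dnai2, Dyx1c1) were not matched. Heart classes are barcodes named by marker UMIs. CPM use non-mitochondrial UMIs, with exact Poisson intervals. Shares have Clopper-Pearson intervals and ratios conditional exact binomial intervals, all at 95%. They cover counting error only. A list's median ratio uses genes with at least 10 UMIs and 0.5 UMIs added. A 4-fold call uses genes with at least 20 UMIs in both groups together and sets counts under 3 to 3. It needs 3 UMIs in the higher group, a condition added after seeing the data. Named genes are list members and genes at the ends of rankings by ratio. The rankings gave the 15 highest in secretory and in ciliated nuclei over other control barcodes, and the 10 highest and 10 lowest of ciliated over secretory nuclei. Together these were 40 distinct genes. A noncoding RNA that overlaps another gene is uncertain, since the sources do not state the counting of strands. Clustering used 2000 variable genes, 30 principal components, 15 neighbours and leidenalg 0.10.2 at resolution 0.8 in scanpy 1.11.5, and doublets were called with Scrublet. For scaling alone, edgeR 4.0.16 (TMM) and DESeq2 1.42.0 (median of ratios) supplied factors. The scripts were tested on simulated data. Promoter windows are RefSeq's. In 84 of 102 windows of cilium genes the last 30 bases were found in a transcript of the gene, and in 0 reversed.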

Additional observations from a re-analysis of the deposited data

Results flagged for a closer look

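Outside the nuclei described, 16 control barcodes with 30.7% to 50.7% mitochondrial UMIs met the marker rule but not the limit of 30%. Of these, 6 were secretory, 8 ciliated and 2 undivided, with 73616 CPM of the secretory programme and 22979 CPM of cilium genes over the group. No CF-KI barcode over the limit met the rule. With the limit lifted, 107 control barcodes were airway epithelial.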

How the results depend on the processing

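Of 82 alternative values for 12 results, 48 moved by less than a counting interval, 33 by more and 1 reversed. Some of the 48 could not move. Scrublet marked no airway nucleus, so values from these nuclei alone stayed the same without doublets. A split by marker UMIs does not enter the junction ratio. A median over genes has no counting interval, so its moves were set against the width of the interval of the list's summed ratio. The CF-KI share was 0% without a mitochondrial limit, the 1 alternative of 6 that could have raised it. With at most 5% mitochondrial UMIs, airway nuclei were 0.338% of barcodes, 21.1% of them ciliated. They then held 9.72% of Scgb1a1 UMIs and 0.982% cardiomyocyte marker UMIs, with median log2 ratios of 2.61 (cilium genes), 2.11 (secretory programme, secretory over ciliated) and 4.07 (junction genes). These 3 ratios used fewer genes, 16, 24 and 21 in place of 75, 32 and 27, and 8 of the 38 nuclei were ciliated. Without counting Scgb3a2 and Cyp2f2, the values in the same order were 0.515%, 48.3%, 45.3%, 0.940%, 1.48, 1.28 and 4.72. With at least 4 markers the cilium ratio was 2.02 and the secretory ratio 1.31. With at least 500 genes the Scgb1a1 share was 51.8% and the junction ratio 4.51. Splitting by marker UMIs gave a cilium ratio of 1.31, and thinning to 500 UMIs a junction ratio of 3.21 over fewer genes (11 in place of 27). Alternatives chosen after seeing the data gave these values. Without a mitochondrial limit, the ratios were 1.76, 1.29 and 5.21, and the Scgb1a1 share was 64.4%. Without nuclei with 20 or more cardiomyocyte UMIs, the cilium and secretory ratios were 2.58 and 0.75, and the Scgb1a1 and cardiomyocyte shares 45.6% and 0.263%. In the airway cluster only, the secretory ratio was 1.35 and the cardiomyocyte share 1.07%. The ratio of cardiomyocyte markers of ciliated over secretory nuclei reversed without the nuclei loaded with them (log2 -0.35), which were left out by the counts compared. Without the secretory nucleus richest in Scgb1a1, the log2 ratio of Scgb1a1 by mitochondrial share was 3.02. With markers of 1 kind only, the cilium and secretory ratios were 4.78 and 1.44. The cause of these moves was not tested, save where nuclei or genes were left out. TMM and median-of-ratios scaling moved no value by more than that width. No paired analysis was possible because each group had 1 library and the groups share only 1 replicate number. Leaving out a replicate could not be run for the same reason. Depth limits the regulators, of which many had under 10 UMIs.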
